A study of Mus musculus with 28 samples.

Results

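The NADH shuttles and NAD-linked mitochondrial redox reactions were followed through 10 genes, which are Ldha, Ldhb, Mdh1, Mdh2, Slc25a12, Slc25a13, Gpd1, Gpd2, Idh3a and Nnt. They were taken by name, as lactate, malate-aspartate and glycerol phosphate shuttle genes with a subunit of isocitrate dehydrogenase and the transhydrogenase, out of the 54446 genes listed in each library. The rule itself used no measured value, but it was written with earlier results of these data known. In the liver of mice gavaged with NMN on the 2680 mg/kg/d schedule, Gpd1 fell to 0.608 of the level in water mice, a call that held in 1 of the 6 fits that left out a library. None of the other 9 genes passed the test in that comparison, in which 7.08% of all tested genes passed. None of the 10 passed in the liver at 1340 mg/kg/d or in the kidney at 1340 or 2680 mg/kg/d, where 0.0161%, 0.12% and 0.4% of all tested genes did. Between the organs of water mice, where 66.9% and 70.5% of all tested genes passed on the 2 schedules, Ldha, Slc25a13 and Gpd1 were higher in the liver and Ldhb, Slc25a12 and Idh3a higher in the kidney on both.

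NADH made in the cytosol cannot cross the inner mitochondrial membrane, so its electrons are passed to lactate or are carried inwards by shuttles. In the malate-aspartate shuttle cytosolic and matrix malate dehydrogenase act on either side of the membrane, and the aspartate-glutamate carriers exchange aspartate for glutamate. In the glycerol phosphate shuttle cytosolic glycerol-3-phosphate dehydrogenase passes electrons to a flavin enzyme on the outer face of the inner membrane. NMN is a precursor of NAD+, the cofactor of nearly all of these dehydrogenases.

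Male mice, 8 weeks old, of the strain C57BL/6 in the labels and C57BL6J in the study's methods, were gavaged for 7 days with NMN or with water, once a day on the 1340 mg/kg/d schedule and 2 times a day on the 2680 mg/kg/d schedule, so that the dose and the number of gavages cannot be told apart. RNA of the liver and of the kidney was sequenced from 4 NMN and 4 water mice on the first schedule and from 3 and 3 on the second, which made 28 libraries in 8 groups. The labels do not tie a liver library to a kidney library of the same mouse. The 14 liver libraries held 12688324 to 20635269 reads assigned to genes and the 14 kidney libraries 13174264 to 33872983, with the largest totals in the kidney of NMN mice at 2680 mg/kg/d (22922994 to 33872983). Levels are given as CPM, the count of a gene scaled to a common library size (with TMM scaling over all 28 libraries). Genes are compared with one another as CPM per kb, that is, per kilobase of exon not shared with another gene. This length counts every annotated exon, whether or not the tissue uses it, so the share of a gene in a pair depends on it.

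The labelled organs matched their markers. The 5 hepatocyte markers summed to between 111067 and 238087 CPM in the liver and to between 931 and 2124 CPM in the kidney. The 6 proximal tubule markers summed to between 1.90 and 70.7 CPM in the liver and to between 14642 and 26475 CPM in the kidney. One liver library of the 2680 mg/kg/d schedule, NMN replicate 1, held more proximal tubule marker RNA (41.6 CPM) than the other 5 (1.90 to 13.5 CPM). In the liver at 1340 mg/kg/d, NMN replicate 4 had a higher share of reads on no gene (12.8%) than the other 7 libraries (4.91% to 7.44%). The schedules also differed in library make-up, since mitochondrial genes took 20.6% of the counts in the kidney of water mice at 2680 mg/kg/d and 9.71% at 1340 mg/kg/d, and water mice of the 2 schedules were therefore not compared with each other. In bulk tissue, fewer cells of a type and less RNA per cell cannot be told apart.

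The isoenzyme and carrier genes that the organs divided between them are shown first, by the 250 bases before their annotated start, because Ldha and Slc25a13 were higher in the liver and Ldhb and Slc25a12 in the kidney. The sequences are from RefSeq (build GRCm38.p6), which held windows for 7 of the 10 genes, and read 5′ to 3′ on the strand of the gene. Capitals mark matches, on either strand, to the E-box CACGTG, to CCAAT or to the GC box GGGCGG. None of the matches overlap. Ldha is at chr7:46845554-46845803 on the plus strand (the first of 2 windows), Ldhb at chr6:142507958-142508207, Slc25a12 at chr2:71367756-71368005 and Slc25a13 at chr6:6217174-6217423, all 3 on the minus strand.
Ldha: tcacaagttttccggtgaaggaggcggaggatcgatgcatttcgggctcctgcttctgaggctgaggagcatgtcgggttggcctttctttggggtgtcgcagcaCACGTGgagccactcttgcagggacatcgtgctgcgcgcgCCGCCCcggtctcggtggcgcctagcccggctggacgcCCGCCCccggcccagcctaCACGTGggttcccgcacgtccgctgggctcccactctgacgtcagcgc
Ldhb: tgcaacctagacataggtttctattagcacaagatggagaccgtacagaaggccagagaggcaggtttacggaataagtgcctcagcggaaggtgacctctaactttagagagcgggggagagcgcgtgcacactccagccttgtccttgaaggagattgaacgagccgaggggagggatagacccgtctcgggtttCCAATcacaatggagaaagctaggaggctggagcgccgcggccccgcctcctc
Slc25a12: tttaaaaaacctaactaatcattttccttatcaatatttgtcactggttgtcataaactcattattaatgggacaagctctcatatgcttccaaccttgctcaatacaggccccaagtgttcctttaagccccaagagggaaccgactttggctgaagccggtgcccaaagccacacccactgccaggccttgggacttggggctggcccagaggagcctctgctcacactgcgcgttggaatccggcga
Slc25a13: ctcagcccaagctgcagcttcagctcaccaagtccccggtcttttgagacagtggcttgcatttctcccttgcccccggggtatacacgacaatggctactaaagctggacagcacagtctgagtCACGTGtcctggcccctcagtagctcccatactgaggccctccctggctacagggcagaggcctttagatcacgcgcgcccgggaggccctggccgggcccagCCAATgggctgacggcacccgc
The E-box letters stood 2 times in the window of Ldha and 1 time in that of Slc25a13, and in neither of the other windows printed. They occur in 6.02% of the 32851 windows of the same length in the table. CCAAT stood 1 time in Ldhb and 1 time in Slc25a13 and occurs in 33.8% of all windows, and GGGCGG stood 2 times in Ldha and occurs in 32.7%. The window of Slc25a12 held none of these motifs. The second window of Ldha (chr7:46846832-46847081) held none either. The TATA motif TATAAA, which 12.4% of all windows hold, was searched as well and stood in none of the windows named here. The genes printed were chosen by their difference between the organs, and Gpd1 and Idh3a, which also differed, had no window. A link between a motif and an organ was not tested. The first Ldha window had 25 CpG dinucleotides and the second 9, that of Ldhb 14, of Slc25a13 11 and of Slc25a12 6, against a median of 6 over all windows.

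Lactate dehydrogenase is a tetramer of the subunits encoded by Ldha and Ldhb. In water mice at 1340 mg/kg/d, Ldha (ENSMUSG00000063229.15) stood at 1048, 1096, 811 and 1358 CPM in the liver and at 566, 429, 442 and 450 CPM in the kidney. At 2680 mg/kg/d it stood at 1096, 785 and 707 CPM in the liver and at 361, 359 and 378 CPM in the kidney. Every liver library of either schedule was above every kidney library. Liver was compared with kidney in the water mice of each schedule with the quasi-likelihood F test of edgeR. The p-values were adjusted over all tested genes by the Benjamini-Hochberg procedure, with a threshold of 0.05 on the adjusted p. Ldha was 2.25-fold higher in the liver on the first schedule (log2 1.17, SE 0.16, edgeR adjusted p = 2.09e-05) and 2.30-fold higher on the second (log2 1.20, SE 0.15, edgeR adjusted p = 2.96e-05).

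Ldhb (ENSMUSG00000030246.11) had the widest gap between organs of the 10 genes. Its levels in water mice at 1340 mg/kg/d were 5.32, 6.26, 4.60 and 4.21 CPM in the liver and 846, 693, 751 and 777 CPM in the kidney. At 2680 mg/kg/d they were 4.10, 4.79 and 3.16 CPM in the liver, from 54, 64 and 38 counts, and 725, 763 and 770 CPM in the kidney. The kidney level was 153-fold higher on the first schedule (log2 liver against kidney -7.26, SE 0.17, edgeR adjusted p = 5.94e-13) and 191-fold higher on the second (log2 -7.58, SE 0.17, edgeR adjusted p = 2.26e-11). Beside the low liver values, the mean in liver water mice was 0.665% of the kidney mean at 1340 mg/kg/d and 0.533% at 2680 mg/kg/d, and the proximal tubule markers were at 0.239% and 0.0259% of theirs. The part of kidney RNA in the liver level of Ldhb was not tested. Per kilobase, Ldhb made up 0.475% to 1.27% of the summed Ldha and Ldhb level in the 14 liver libraries and 75.8% to 82.5% in the 14 kidney libraries. The lengths used were 1570 bases for Ldhb and 3310 for Ldha. In CPM, without this division, the kidney means of Ldhb and Ldha in water mice were 767 and 472 at 1340 mg/kg/d. At 2680 mg/kg/d they were 753 and 366.

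**Figure D1:**
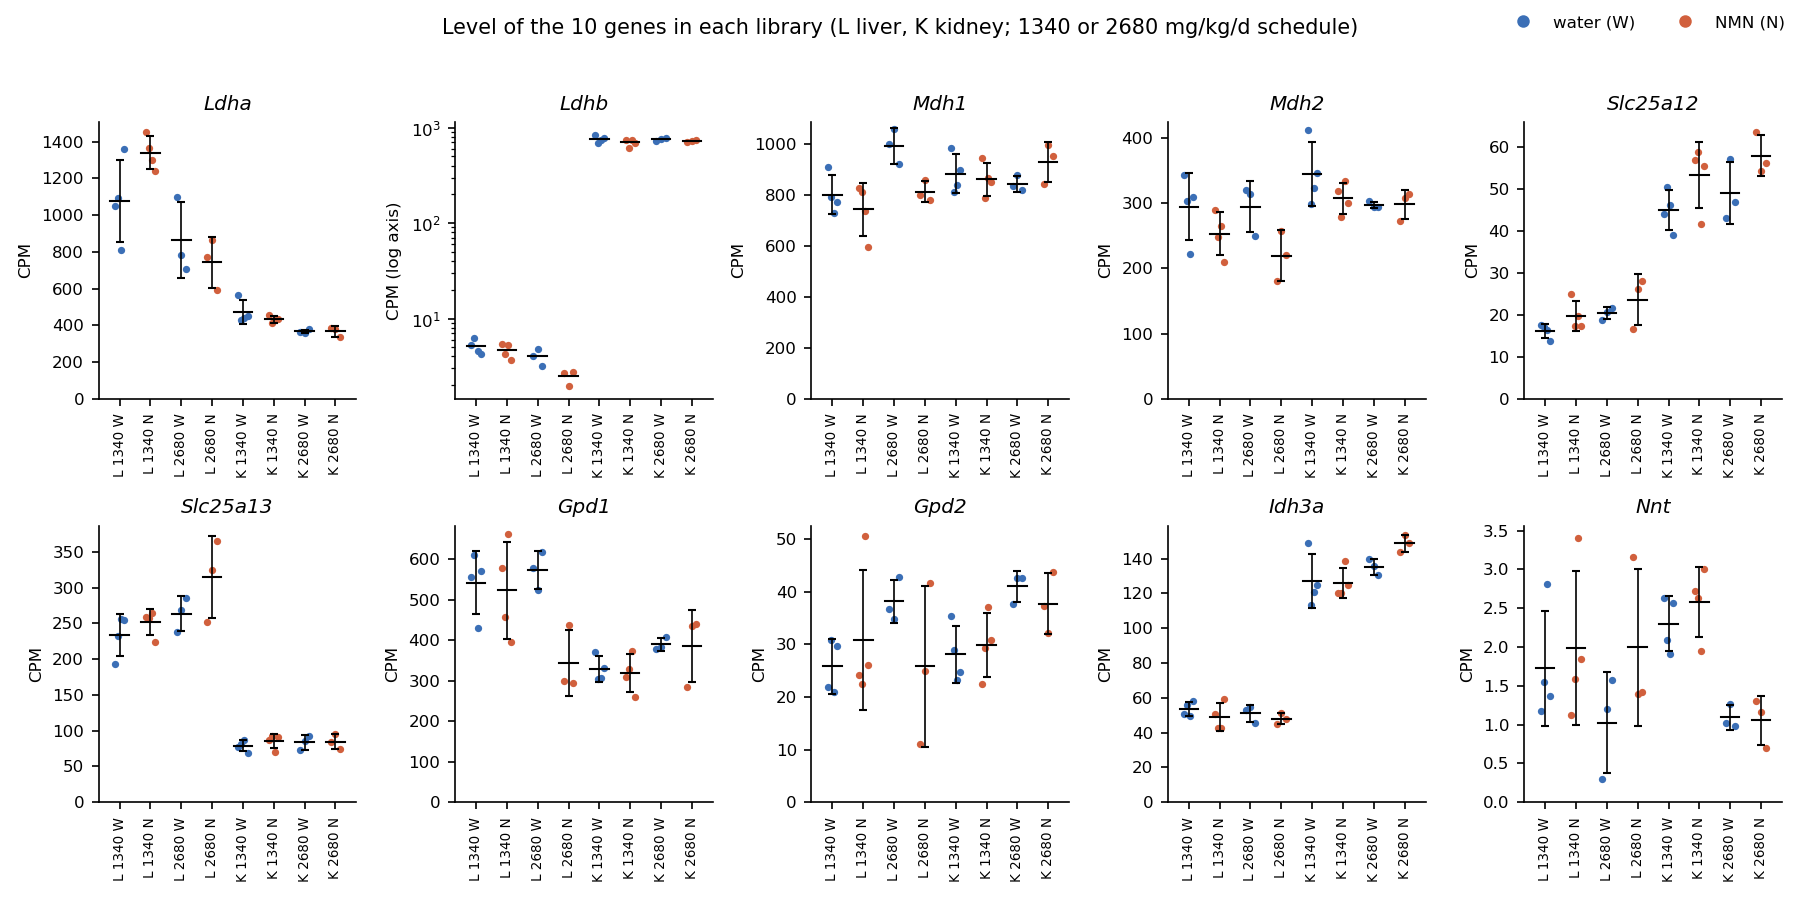
Level of each of the 10 genes in CPM (vertical axis, from 0 except for Ldhb, which has a log axis) in every library, by organ (L liver, K kidney), schedule (1340 or 2680 mg/kg/d) and treatment (W water, N NMN). Points are libraries, black lines group means and bars the SD (not drawn for Ldhb). Gpd1 in the liver at 2680 mg/kg/d stood at 523 to 617 CPM in water mice and 294 to 437 CPM in NMN mice, and Ldhb was below 7 CPM in every liver library.

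The malate dehydrogenases of the cytosol (Mdh1, ENSMUSG00000020321.15) and of the matrix (Mdh2, ENSMUSG00000019179.10) stood close together in the 2 organs. Mdh1 averaged 801 ± 76.4 CPM (SD, n = 4) in the liver and 884 ± 75.9 CPM (SD, n = 4) in the kidney of water mice at 1340 mg/kg/d, and 994 ± 69.9 and 845 ± 31.2 CPM (SD, n = 3 each) at 2680 mg/kg/d. Mdh2 averaged 295 ± 51.8 and 345 ± 49.3 CPM (SD, n = 4 each), and 295 ± 39.4 and 297 ± 5.21 CPM (SD, n = 3 each). Neither passed the test between organs (log2 -0.17 and 0.20 for Mdh1, -0.25 and -0.05 for Mdh2, edgeR adjusted p between 0.107 and 0.710). With upper quartile scaling, which moved the median log2 difference of all tested genes from -0.10 to -0.25, both passed as lower in the liver at 1340 mg/kg/d. Both also passed there with only genes of at least 10 counts in every library, and Mdh1 passed as higher in the liver at 2680 mg/kg/d without liver water replicate 3. Per kilobase, Mdh2 was 13.7% to 22.1% of the summed pair in the liver and 18.0% to 22.9% in the kidney.

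The aspartate-glutamate carriers aralar (Slc25a12, ENSMUSG00000027010.16) and citrin (Slc25a13, ENSMUSG00000015112.15) differed between organs in opposite directions. Slc25a12 stood at 17.4, 17.1, 16.2 and 13.7 CPM in the liver and at 44.0, 50.4, 46.1 and 39.0 CPM in the kidney of water mice at 1340 mg/kg/d, and at 18.8, 20.7 and 21.5 CPM against 42.9, 57.1 and 46.9 CPM at 2680 mg/kg/d. It was higher in the kidney by 2.84-fold (log2 liver against kidney -1.51, SE 0.14, edgeR adjusted p = 5.2e-07) and 2.46-fold (log2 -1.30, SE 0.14, edgeR adjusted p = 1.15e-05). Citrin, the carrier of hepatocytes, showed the reverse order. Slc25a13 stood at 194, 232, 256 and 255 CPM in the liver and at 77.0, 81.6, 87.0 and 69.0 CPM in the kidney at 1340 mg/kg/d, and at 237, 269 and 285 CPM against 72.6, 85.5 and 92.7 CPM at 2680 mg/kg/d. It was higher in the liver by 2.92-fold (log2 1.55, SE 0.13, edgeR adjusted p = 1.61e-07) and 3.08-fold (log2 1.62, SE 0.13, edgeR adjusted p = 8.69e-07). For both carriers the liver and kidney libraries of water mice did not overlap. Per kilobase, aralar was 2.69% to 4.72% of the pair in the liver and 20.8% to 28.0% in the kidney, so citrin was the higher of the 2 in every library of both organs.

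**Figure D2:**
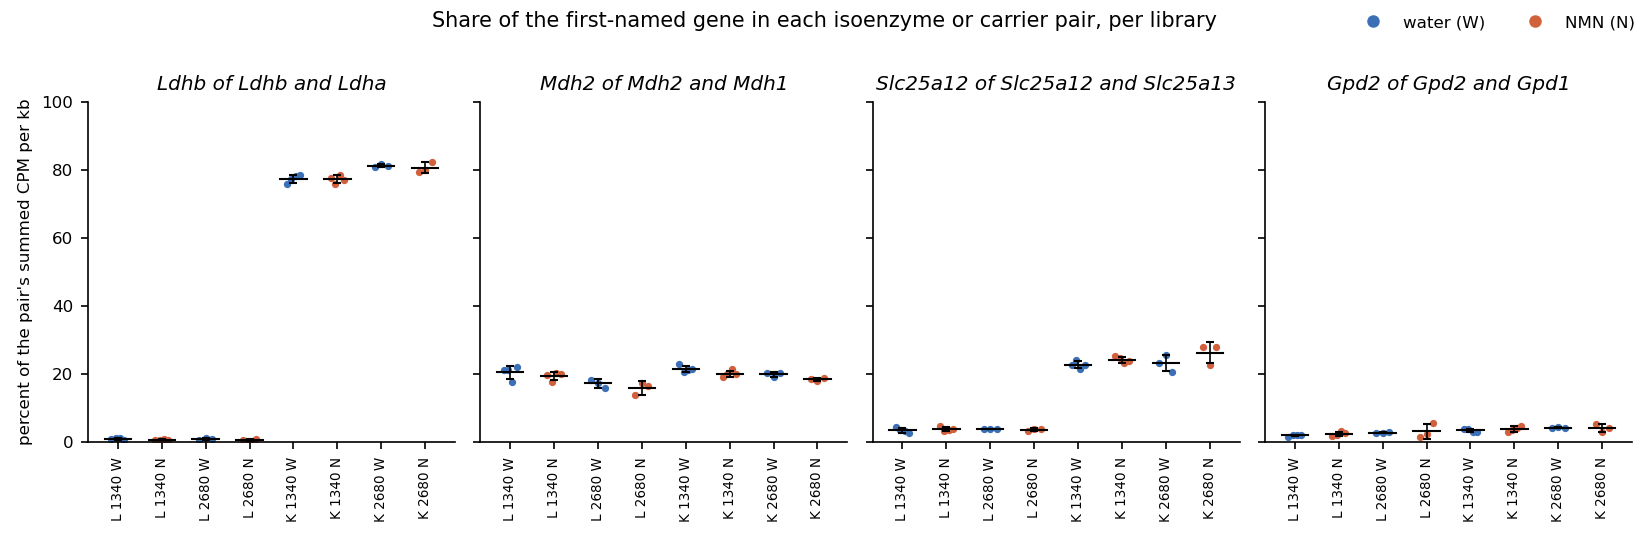
Share of one gene in the summed level of its pair, in percent of CPM per kb (vertical axis), in every library (points) by group, with group means as lines. Ldhb took at most 1.27% of the lactate dehydrogenase pair in the liver and at least 75.8% in the kidney, while the shares of Mdh2 lay close together in the 2 organs.

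The glycerol phosphate pair was dominated by its cytosolic member. Gpd1 (ENSMUSG00000023019.12) stood at 557, 610.3, 430 and 572 CPM in the liver and at 372, 304, 308 and 331 CPM in the kidney of water mice at 1340 mg/kg/d. At 2680 mg/kg/d it stood at 578, 523 and 617 CPM in the liver and at 379, 383 and 407 CPM in the kidney, and the organs did not overlap on either schedule. It was higher in the liver by 1.62-fold (log2 0.70, SE 0.13, edgeR adjusted p = 0.000329) and 1.44-fold (log2 0.52, SE 0.11, edgeR adjusted p = 0.00148). The flavin enzyme Gpd2 (ENSMUSG00000026827.12) averaged 25.8 ± 5.15 CPM in the liver and 28.1 ± 5.45 CPM in the kidney at 1340 mg/kg/d (SD, n = 4 each), and 38.1 ± 4.17 and 41.0 ± 2.93 CPM at 2680 mg/kg/d (SD, n = 3 each). It did not pass between organs (log2 -0.15 and -0.14, edgeR adjusted p = 0.479 and 0.368). Per kilobase, Gpd2 was 1.54% to 5.68% of the pair in the liver and 2.97% to 5.29% in the kidney. Gpd1 shares exon bases with Gm16537 on the opposite strand, and 87.0% of its exon bases are its own. Since strand was not used in counting, reads wholly within the shared part are assigned to neither of the 2 genes.

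Idh3a encodes the catalytic subunit of the NAD-linked isocitrate dehydrogenase of the tricarboxylic acid cycle. In water mice at 1340 mg/kg/d, Idh3a (ENSMUSG00000032279.11) stood at 50.9, 55.8, 49.7 and 58.4 CPM in the liver and at 149, 114, 121 and 125 CPM in the kidney, and at 2680 mg/kg/d at 52.9, 54.8 and 45.3 CPM against 139.6, 136 and 131 CPM. It was higher in the kidney by 2.41-fold (log2 liver against kidney -1.27, SE 0.12, edgeR adjusted p = 6.31e-07) and 2.72-fold (log2 -1.44, SE 0.11, edgeR adjusted p = 5.88e-07). Nnt, the transhydrogenase that couples the proton gradient to NADPH formation, was the lowest of the 10 genes per kilobase in the kidney and in the liver, with medians of 0.521 and 0.401 CPM per kb over 14 libraries each. Its 28 libraries held 4 to 63 counts each, 878 in all, and it did not pass between organs (log2 -0.43 and -0.12, edgeR adjusted p = 0.282 and 0.845). C57BL/6J mice, the substrain named in the study's methods, are known to carry a deletion within Nnt. The files list Nnt under 2 identifiers, ENSMUSG00000025453.18 with these counts and ENSMUSG00000116207.1 with 0 counts in every library. All 3339 exon bases of the second lie within the 7037 of the first, so reads wholly within them are assigned to neither gene. The level per kilobase divides by the 3698 exon bases that are not shared. The part of the deletion in the low level was not tested.

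Across the 10 genes, 6 passed between the organs on each schedule, 3 higher and 3 lower in the liver, beside 66.9% of 14599 tested genes at 1340 mg/kg/d (30.9% higher and 36.1% lower) and 70.5% of 14844 at 2680 mg/kg/d (31% higher and 39.5% lower). The share of the 10 genes was near that of all genes. Their median log2 difference was -0.21 and -0.0865, beside -0.10 and -0.17 over all tested genes. The same 6 genes passed with the same sign under each of the 15 other fits on the first schedule and the 13 on the second. Under the stricter threshold, an adjusted p under 0.01 with a fold over 2 or under 0.5, 5 of them passed on each schedule, beside 41.2% and 43.6% of all genes, and Gpd1 did not.

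**Figure D3:**
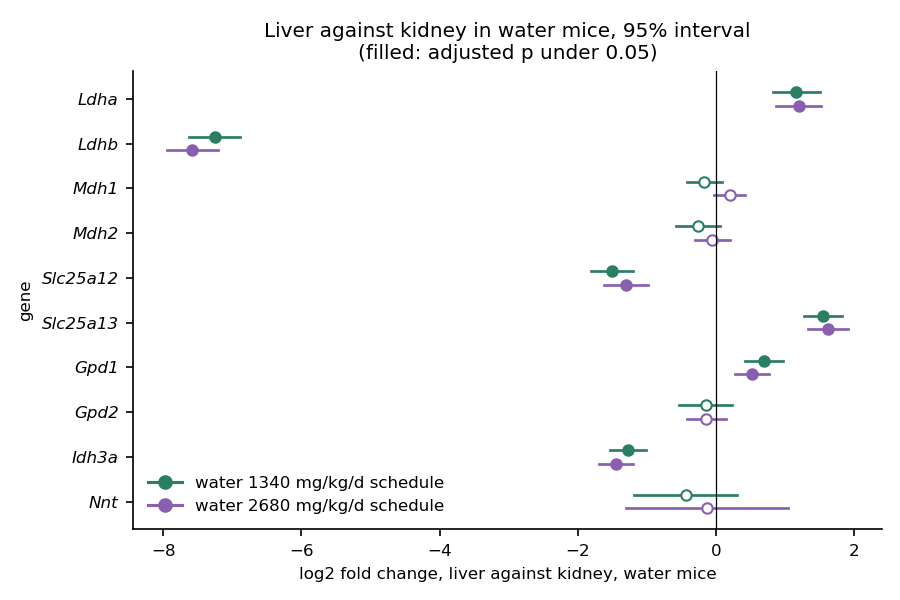
Log2 difference of liver against kidney in water mice (horizontal axis) for the 10 genes on each schedule, with 95% confidence intervals, filled where the edgeR adjusted p was under 0.05. The 6 filled genes are the same on both schedules, and Ldhb lies farthest from 0, at -7.26 and -7.58.

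Partner genes of the same pathways were given by 6 lists, of which 37 genes were found. Of these, 30 of 36 tested passed between organs in water mice at 1340 mg/kg/d, 9 higher and 21 lower in the liver, and 28 of 35 at 2680 mg/kg/d, 9 higher and 19 lower. Beside them stand 66.9% and 70.5% of all tested genes, with 30.9% and 31% higher and 36.1% and 39.5% lower in the liver, and the lists that follow are described by their counts alone. The aminotransferases of the malate-aspartate shuttle were both higher in the liver, Got1 by log2 1.66 and 2.20 and Got2 by log2 1.39 and 1.75 on the 2 schedules. Slc25a11, the 2-oxoglutarate-malate carrier, was lower in the liver at 1340 mg/kg/d (log2 -0.31) and did not pass at 2680 mg/kg/d. Among the lactate and pyruvate partners, 1 was higher and 2 were lower in the liver, of 6 tested on the first schedule and 5 on the second. These were the pyruvate carrier subunit Mpc2 (log2 0.42 and 0.49), the D-lactate dehydrogenase Ldhd (log2 -1.38 and -1.18) and the monocarboxylate transporter Slc16a7 (log2 -0.71 and -0.45).

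Among the glycerol partners, 1 was higher and 3 lower in the liver, of 5 tested on each schedule. The glycerol channels were close to exclusive to an organ. Aqp9 had 4579 to 8735 counts in the liver and 0 to 9 in the kidney of water mice of both schedules, whereas Aqp3 and Aqp7 had 0 to 4 counts in the liver and 351 to 1755 in the kidney. Glycerol kinase (Gk) was lower in the liver by log2 -2.18 and -2.38. Of 10 matrix NAD-linked dehydrogenase genes, 2 were higher in the liver on both schedules, which were Glud1, the glutamate dehydrogenase (log2 1.86 and 2.03), and Pdhb (log2 0.65 and 0.44), and 8 and 7 were lower. These included the pyruvate dehydrogenase subunit Pdha1 (log2 -1.64 and -1.39), Idh3g, a regulatory subunit of the same enzyme as Idh3a (log2 -1.37 and -1.29), and the oxoglutarate dehydrogenase Ogdh (log2 -1.27 and -1.06).

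Of 8 NADPH and NAD kinase genes, 3 were higher and 5 lower in the liver on each schedule. The NAD kinases of the matrix (Nadk2, log2 1.39 and 1.62) and of the cytosol (Nadk, log2 0.63 and 0.71) and the cytosolic NADP-linked isocitrate dehydrogenase Idh1 (log2 0.80 and 0.74) were higher. The glucose-6-phosphate dehydrogenase G6pdx (log2 -2.87 and -2.42) and the matrix enzyme Idh2 (log2 -1.50 and -1.23) were lower, as was the malic enzyme Me3, with 0 to 8 counts in the liver and 492 to 681 in the kidney. Of the 3 complex I genes and the matrix NAD carrier, 2 of 4 were lower in the liver, which were Slc25a51, the carrier that brings NAD+ into the matrix (log2 -1.16 and -1.66), and Ndufs1 (log2 -0.49 and -0.32), and none was higher.

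The effect of NMN was tested by comparing NMN with water mice within an organ and a schedule. The clearest difference among the 10 genes was in Gpd1 in the liver at 2680 mg/kg/d. Water mice stood at 578, 523 and 617 CPM and NMN mice at 300.4, 437 and 294 CPM, so that the groups did not overlap, and NMN replicate 2 lay closest to the water mice. Gpd1 fell by 39.2% (95% confidence interval of the change -52.8% to -21.6%, log2 -0.72, SE 0.17, edgeR adjusted p = 0.0290). In this comparison 883 of 12477 genes passed (7.08%), 380 higher (3.05%) and 503 lower (4.03%) in NMN mice, so 1 of 10 genes is near the share of all genes. With 3 mice a group, the call held in 1 of the 6 fits that left out a library. Such fits also have fewer libraries to test with, and the part of this in the lost calls was not tested. Without water replicate 1, 2 or 3 the edgeR adjusted p was 0.0848, 0.0780 or 0.0864, without NMN replicate 1 or 3 it was 0.0596 or 0.12, and without NMN replicate 2 it was 0.00732, with log2 differences from -0.90 to -0.61.

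Of the other 9 genes in that comparison, Mdh2 was nearest to the threshold. Mdh2 stood at 320.4, 314 and 249 CPM in water mice and at 180.2, 258 and 221 CPM in NMN mice (log2 -0.40, SE 0.15, edgeR adjusted p = 0.143), and the groups overlapped between 249 and 258 CPM. Mdh1 stood at 1002, 1060 and 920.5 CPM against 799, 859 and 781 CPM (log2 -0.26, SE 0.12, edgeR adjusted p = 0.215), with no overlap. Ldhb stood at 4.10, 4.79 and 3.16 CPM in water mice and at 2.69, 1.96 and 2.77 CPM in NMN mice, from 28 to 40 counts in the latter (log2 -0.66, SE 0.37, edgeR adjusted p = 0.292). Neither of these differences passed, although no NMN library reached the lowest water library. Gpd2 was at 36.8, 34.8 and 42.8 CPM against 11.1, 24.8 and 41.6 CPM (log2 -0.55, SE 0.39, edgeR adjusted p = 0.431), and NMN replicate 3 lay within the range of the water mice. Leaving out a library moved the log2 difference of Gpd2 between -1.072 and -0.2056. Ldha, Idh3a, Slc25a12 and Slc25a13 had log2 differences of -0.18, -0.06, 0.23 and 0.28 (edgeR adjusted p between 0.311 and 0.846). Nnt, with 4 to 47 counts in the 6 libraries, had a log2 difference of 0.99 with a 95% confidence interval from -0.43 to 2.42, so its change was not resolved at this depth. The median log2 difference of the 10 genes was -0.22, with 7 below and 3 above 0, beside 0.00447 over all tested genes.

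**Figure D4:**
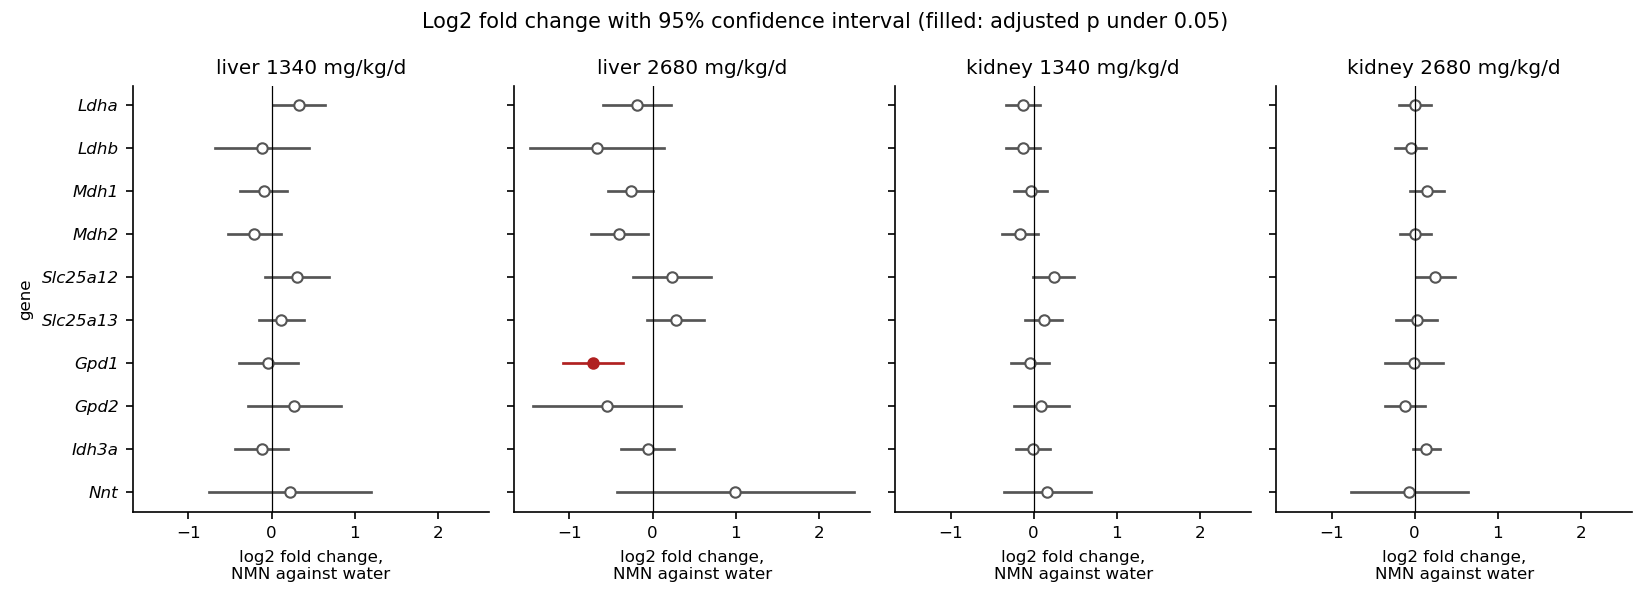
Log2 difference of NMN against water (horizontal axis) for the 10 genes in each organ and schedule, with 95% confidence intervals, filled where the edgeR adjusted p was under 0.05. The 1 filled point is Gpd1 in the liver at 2680 mg/kg/d, at -0.72 with an interval from -1.08 to -0.35.

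Hepatocyte marker RNA moved in the same libraries. In the liver at 2680 mg/kg/d, the 5 hepatocyte markers summed to 238087, 227107 and 208908 CPM in water mice. In NMN mice they summed to 150249, 178167 and 177508 CPM. Albumin (Alb) contributed the most CPM to each sum, and none of the 5 was at 0. Of the 5, 2 fell, transthyretin (Ttr, log2 -0.97, edgeR adjusted p = 0.00227) and Serpina1c (log2 -0.58, edgeR adjusted p = 0.0196), and Alb did not pass (log2 -0.36, edgeR adjusted p = 0.0750). Of the markers of other cells, the erythroid Alas2 (log2 -1.72, edgeR adjusted p = 0.00121) and Cela1 of the pancreas list (log2 -2.17, edgeR adjusted p = 0.000731) fell. The other 4 blood cell markers, the globins Hbb-bs, Hba-a2, Hbb-bt and Hba-a1, did not pass (log2 0.41, 0.60, 0.08 and -0.01, edgeR adjusted p between 0.743 and 0.996), and no tested gene of the immune, endothelial, adipocyte or proximal tubule lists passed. The defining pancreas markers Cpa1, Pnlip, Prss1 and Ins1 were at 0 in every liver library. Library make-up moved with the groups as well. Reads on no gene took 3.62%, 3.27% and 3.47% of the water libraries and 5.06%, 3.90% and 4.21% of the NMN libraries, without overlap, and mitochondrial genes took on average 6.67% and 7.81% of the counts. The part of these shifts in the lower Gpd1 level was not tested.

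Among the partner genes in the same comparison, 5 of 32 passed, 4 lower and 1 higher in NMN mice, beside 7.08% of all tested genes (4.03% lower and 3.05% higher), with a median log2 difference of -0.0631 over the lists. DESeq2, which called 11.6% of all genes, called 6, these 5 and Pgd. Glud1, which links glutamate to the tricarboxylic acid cycle, stood at 1820.2, 1557 and 1567 CPM in water mice and at 814, 866 and 1033 CPM in NMN mice (log2 -0.84, SE 0.14, edgeR adjusted p = 0.00672). Idh2 stood at 162, 164 and 145 CPM against 68.3, 89.7 and 85.3 CPM (log2 -0.93, SE 0.14, edgeR adjusted p = 0.00559). Ldhd, which shares exon bases with Znrf1 on the other strand, stood at 237, 273 and 251 CPM against 125, 136 and 133 CPM (log2 -0.92, SE 0.13, edgeR adjusted p = 0.00404). In all 3 of these genes every NMN library was below every water library, and the call held without any single library.

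The remaining partner genes that passed were the carriers Slc25a11, which was lower in NMN mice, and Slc25a51, which was higher. The carriers Slc25a12 and Slc25a13 did not pass. Slc25a11, which carries malate into the matrix in exchange for 2-oxoglutarate and shares exon bases with Rnf167, fell from 111, 147 and 110.3 CPM to 69.8, 90.0 and 78.7 CPM (log2 -0.60, SE 0.16, edgeR adjusted p = 0.0465). Its call held without NMN replicate 2 (edgeR adjusted p = 0.0357) and was lost without water replicate 1, 2 or 3 (0.0768, 0.196 and 0.0754), without NMN replicate 1 or 3 (0.101 and 0.155) and without edgeR's robust option (0.0544). Slc25a51 rose from 29.0, 43.4 and 40.4 CPM to 83.3, 63.1 and 98.3 CPM (log2 1.15, SE 0.21, edgeR adjusted p = 0.0131). Without NMN replicate 3 its edgeR adjusted p was 0.0571. Of the glycerol partners, none of 3 passed, and Gpd1l, a paralogue of Gpd1, had the smallest p (log2 0.51, SE 0.17, edgeR adjusted p = 0.0965).

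**Figure D5:**
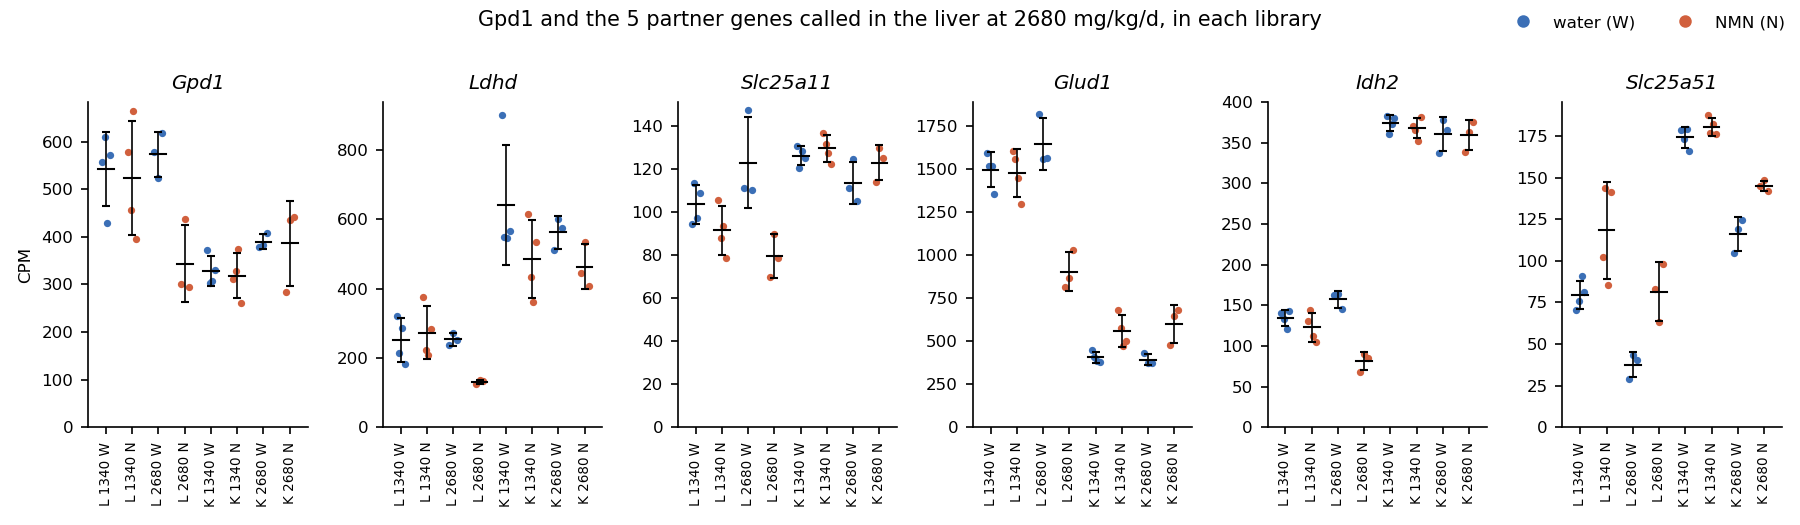
Level in CPM (vertical axis, from 0) in every library of Gpd1 and of the 5 partner genes that passed the test in the liver at 2680 mg/kg/d, by organ, schedule and treatment, with points for libraries, lines for means and bars for the SD. Glud1 in the liver at 2680 mg/kg/d stood at 1557 CPM or above in water mice and at 1033 CPM or below in NMN mice, and Slc25a51 was higher in NMN mice there.

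In the liver at 1340 mg/kg/d, 2 of 12449 genes passed (0.0161%), and neither was among the 10. DESeq2, which called 0.569% of all genes, also called none of the 10. At an unadjusted p under 0.05, which 6.86% of all genes reached, there was 1 of the 10, Ldha. Ldha stood at 1048, 1096, 811 and 1358 CPM in water mice and at 1451, 1363, 1303 and 1241 CPM in NMN mice (log2 0.33, SE 0.15, edgeR adjusted p = 0.710), and the highest water library lay among the NMN libraries. Gpd1 stood at 557, 610.3, 430 and 572 CPM against 578, 457, 663 and 395 CPM, with a log2 difference of -0.04 and a 95% confidence interval from -0.39 to 0.32. The other genes had log2 differences from -0.21 (Mdh2) to 0.31 (Slc25a12), with edgeR adjusted p between 0.805 and 0.959. The median over the 10 genes was 0.0391, beside -0.00273 over all genes. None of 32 partner genes passed, 2 had an unadjusted p under 0.05 and DESeq2 called 0. The smallest p of each list were those of Slc25a51 (log2 0.59, edgeR adjusted p = 0.452), Pgd (log2 -0.42, 0.670), Gk (log2 0.34, 0.785), Pdha1 (log2 0.23, 0.785), Slc16a1 (log2 0.53, 0.802) and Slc25a11 (log2 -0.17, 0.846).

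In the kidney, 18 of 14972 genes passed at 1340 mg/kg/d (0.12%) and 61 of 15245 at 2680 mg/kg/d (0.4%), and none of the 10 did on either schedule by edgeR or by DESeq2. DESeq2 called 1.26% and 1.53% of all genes. At an unadjusted p under 0.05 there were 0 and 1 of the 10, beside 8.94% and 11.1% of all genes. The 1 was Slc25a12 at 2680 mg/kg/d, which stood at 42.9, 57.1 and 46.9 CPM in water mice and at 63.4, 54.1 and 56.0 CPM in NMN mice (log2 0.24, SE 0.11, edgeR adjusted p = 0.430), with overlap between the groups. At 1340 mg/kg/d it stood at 44.0, 50.4, 46.1 and 39.0 CPM against 56.9, 58.8, 41.6 and 55.3 CPM (log2 0.24, SE 0.12, edgeR adjusted p = 0.564), where NMN replicate 3 lay among the water mice. For Gpd1 the kidney values were 372, 304, 308 and 331 CPM in water and 310.2, 328, 375 and 261 CPM in NMN mice at 1340 mg/kg/d (log2 -0.04), and 379, 383 and 407 CPM against 284, 434 and 441 CPM at 2680 mg/kg/d (log2 -0.01). Ldhb, abundant in the kidney, had log2 differences of -0.13 and -0.05. All 10 genes lay between -0.16 (Mdh2) and 0.24 at 1340 mg/kg/d and between -0.11 (Gpd2) and 0.24 at 2680 mg/kg/d, with medians of -0.0229 and 0.00814 beside 0.00110 and 0.00380 over all genes.

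No gene of any marker list passed the test in either kidney comparison, and the summed levels of the tubule lists did not all go one way. The proximal tubule markers summed to 14642 to 19770 CPM in NMN and 19516 to 26475 CPM in water mice at 1340 mg/kg/d, and to 15838 to 20274 against 21924 to 23685 CPM at 2680 mg/kg/d. Kap contributed the most CPM to each of these sums, and none of the 6 was at 0. The log2 differences at 1340 and 2680 mg/kg/d were -0.63 and -0.54 for Slc5a2, -0.44 and -0.43 for Kap, -0.31 and -0.33 for Slc34a1, -0.06 and -0.29 for Lrp2, -0.15 and -0.03 for Slc22a6, and 0.02 and 0.05 for Cubn. The loop and distal tubule markers summed to 3470 to 3735 CPM in NMN and 2739 to 3141 CPM in water mice at 1340 mg/kg/d, and to 2688 to 3107 against 2456 to 2930 CPM at 2680 mg/kg/d. The collecting duct markers summed to 462 to 517 against 411 to 549 CPM, and to 392 to 438 against 369 to 409 CPM. Their part in the kidney results was not tested. None of the 35 partner genes tested on each schedule passed either, with 3 and 7 at an unadjusted p under 0.05 (8.94% and 11.1% of all genes). DESeq2 called 1 at 1340 mg/kg/d, Glud1, and 2 at 2680 mg/kg/d, Glud1 and Slc25a51. Glud1 had the smallest p of its list on both schedules, with log2 differences of 0.46 (SE 0.11, edgeR adjusted p = 0.115) and 0.62 (SE 0.13, edgeR adjusted p = 0.0736). The other lists were led at 1340 mg/kg/d by Idh1 (log2 -0.30, edgeR adjusted p = 0.441), Gk (0.25, 0.510), Slc16a1 (-0.84, 0.564), Got2 (-0.16, 0.587) and Ndufv2 (-0.12, 0.772). At 2680 mg/kg/d they were led by Slc25a51 (log2 0.32, edgeR adjusted p = 0.140), Me1 (-0.29, 0.247), Mpc1 (0.22, 0.366), Aqp3 (0.16, 0.518) and Got1 (0.11, 0.643).

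A difference in the NMN effect between the schedules was examined with an interaction term, fitted to all 14 libraries of either organ. None of the 10 genes passed in the liver, where 10 of 13412 genes did (0.0746%), or in the kidney, where 1 of 15989 did (0.00625%), and DESeq2 called 0 of the 10 in either, beside 0.815% and 0.0787% of all genes. In the liver 1 of the 10 had an unadjusted p under 0.05, and in the kidney 0, beside 8.6% and 4.62% of all genes. The 1 was Gpd1, whose NMN effect was lower at 2680 than at 1340 mg/kg/d by log2 -0.67 (SE 0.25, 95% confidence interval -1.19 to -0.14, edgeR adjusted p = 0.432), so the difference between schedules in Gpd1 did not pass. Of the partner genes, 0 of 32 passed in the liver and 0 of 35 in the kidney. At an unadjusted p under 0.05 there were 6 and 4, and DESeq2 called 2 in the liver, Glud1 and Idh2, and 0 in the kidney.

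A difference in the NMN effect between the organs was examined in the same way, with all libraries of either schedule. At 1340 mg/kg/d 0 of 15614 genes passed (0%), and among the 10 genes Ldha alone had an unadjusted p under 0.05, which 5.79% of all genes reached (log2 0.44, SE 0.19, edgeR adjusted p = 0.831). DESeq2 called 0 of the 10 and 0.182% of all genes, and of 36 partner genes 0 passed by either tool, with 4 at an unadjusted p under 0.05. At 2680 mg/kg/d 419 of 15811 genes passed (2.65%), with the effect higher in the liver in 1.05% and lower in 1.6%, and none of the 10 did. At an unadjusted p under 0.05 there were 4 of the 10, beside 19.4% of all genes. These were Gpd1 (log2 -0.72, SE 0.25, edgeR adjusted p = 0.133), Ldhb (-0.64, SE 0.22, 0.134), Mdh1 (-0.42, SE 0.15, 0.151) and Mdh2 (-0.42, SE 0.18, 0.210). DESeq2, which called 7.72% of all genes, called 2 of them, Mdh1 (log2 -0.43, adjusted p = 0.0134) and Ldhb (log2 -0.66, adjusted p = 0.0440), and edgeR called Gpd1 without liver NMN replicate 2 (log2 -0.94, adjusted p = 0.0267). Of 36 partner genes 3 passed in edgeR, each with a lower effect in the liver, which were Glud1 (log2 -1.47, SE 0.21, edgeR adjusted p = 0.0024), Idh2 (-0.94, SE 0.16, 0.0082) and Slc25a11 (-0.74, SE 0.18, 0.0480). DESeq2 called 6 of the 36, these 3 with Ldhd, Pgd and Slc25a51. In edgeR the effect was lower in the liver for Pgd (log2 -1.03, SE 0.26, adjusted p = 0.050001) and Ldhd (-0.66, SE 0.17, 0.0547) and higher for Slc25a51 (0.81, SE 0.24, 0.0864), and none of the 3 passed. These interactions share their libraries with the comparisons of NMN and water above.

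The genes whose pattern was most like that of Gpd1 in the liver were sought by Pearson's correlation of log2 CPM over the 14 liver libraries, taken as deviations from the water mice of the same schedule, among 11982 genes tested on both schedules. They were Nsmf (r = 0.928), Capn2 (r = 0.927) and Acsf3 (r = 0.927). These are given as a description only, since the libraries differ in depth and treatment. In the liver at 2680 mg/kg/d their log2 differences were -0.78, -0.70 and -0.75, a direction that their choice by likeness to Gpd1 in these libraries largely fixed. Capn2 shares exon bases with Gm37885.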

How the data were processed

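The authors mapped poly(A) RNA reads by STAR. Reads per gene were obtained by HTSeq-count, unstranded and in its intersection-strict mode, and were deposited as whole-number counts, neither normalized nor filtered. Summary rows that name no gene (18.58% to 29.28% of a library's total) were left out. The build named in the methods could not be matched to a genome, so no coordinates were taken from the files. Of 54446 identifiers, 53229 matched GENCODE M21 with the same version, 1180 with another version and 37 not at all. Symbols and exon lengths came from that annotation.

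Libraries were grouped by their labels. Counts were filtered with filterByExpr, scaled by TMM and tested with edgeR 4.0.16 (robust quasi-likelihood fits, R 4.3.3), in 10 comparisons that each used only their own libraries, with Benjamini-Hochberg adjustment over all tested genes and a threshold of 0.05. Standard errors are the log2 difference divided by the square root of F. The fits were also run on simulated counts, with changes larger than that of Gpd1 and with the spread of each gene taken from the trend over all genes. These runs therefore cannot show how well a change of the size of Gpd1 is detected. The alternatives were DESeq2 1.42.0, its size factors, upper quartile scaling, all genes left unfiltered, a minimum of 10 counts per gene and library, no robust option, an adjusted p under 0.01 with a fold over 2 or under 0.5, the replicate block, all 14 libraries of an organ, and each library left out. Correlations used log2 of CPM plus 0.5.

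The members and the lists were chosen with earlier results of these data known. All 10 genes were tested in every comparison. For the interactions, only those with an unadjusted p under 0.05 were given with their values. Of each list, the genes that passed (at most 3 in each direction) or else the one with the smallest p were named. The study describes the libraries of a group as biological replicates. Totals of 12688324 to 33872983 counts limit only counting error.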

Additional observations from a re-analysis of the deposited data

Results flagged for a closer look

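In 40 groups of 4 libraries, the gap between an extreme library and its nearest neighbour was compared with the range of the group by Dixon's criterion, which chance exceeds in about 1 group in 20. It was exceeded in 3. Ldha in kidney water replicate 1 at 1340 mg/kg/d stood at 566 CPM, and the next library at 450.1 CPM. Slc25a13 in liver NMN replicate 4 at 1340 mg/kg/d, the library with the highest share of reads on no gene, stood at 224 CPM, and the next at 258.0 CPM. Gpd2 in liver NMN replicate 3 at 1340 mg/kg/d stood at 50.6 CPM, and the next at 26.0 CPM. The groups of 3 were not examined in this way.

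The NMN effect at 2680 mg/kg/d was lower in the liver than in the kidney by the interaction test in Slc25a11 (log2 -0.74), Glud1 (log2 -1.47) and Idh2 (log2 -0.94). Glud1 had log2 differences of -0.84 in the liver and 0.62 in the kidney, and the kidney value alone did not pass in edgeR (adjusted p = 0.0736) but passed in DESeq2.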

How the results depend on the processing

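Of 599 values of the 10 genes under alternatives, over 40 results for NMN against water, 567 kept their direction and their side of the threshold, 27 changed sign and 5 lost the call, and every change of sign was in a difference that had not passed. The 5 were Gpd1 on leaving out a library of the 2680 mg/kg/d liver comparison, so the number of the 10 genes called there ranged from 0 to 1, and under the stricter threshold it was 0. With other tools, filters and scalings its adjusted p ranged from 0.000335 (no filter) to 0.0361 (no robust option). For the organ interaction at 2680 mg/kg/d, DESeq2 called 2 of the 10, no filter 1, and leaving out a library 0 to 1. Without a filter Gpd1 in the kidney at 2680 mg/kg/d was at log2 0.01434. Leaving out a library changed signs within these log2 ranges: in the liver at 1340 mg/kg/d Gpd1 -0.1763 to 0.06308, Gpd2 -0.07791 to 0.4061 and Nnt -0.1694 to 0.5732, and at 2680 mg/kg/d Ldha -0.2944 to 0.006469. In the kidney at 1340 mg/kg/d they were Mdh1 -0.07482 to 0.02775, Gpd1 -0.1331 to 0.03874, Gpd2 -0.03031 to 0.2299 and Idh3a -0.06302 to 0.08091, and at 2680 mg/kg/d Ldha -0.03772 to 0.07059, Mdh2 -0.02683 to 0.06695, Slc25a13 -0.07338 to 0.1091, Gpd1 -0.1134 to 0.1683 and Nnt -0.2586 to 0.1824. The number of all genes called moved with the tool and with the filter: with DESeq2 and with no filter they were 74 and 44 in the liver at 1340 mg/kg/d (2 by edgeR), 1450 and 1785 at 2680 mg/kg/d (883), 159 and 269 in the kidney at 1340 mg/kg/d (18), 236 and 514 at 2680 mg/kg/d (61), 98 and 71 for the liver schedule interaction (10), 10 and 106 for the kidney one (1), 27 and 9 for the organ interaction at 1340 mg/kg/d (0) and 1234 and 1307 at 2680 mg/kg/d (419). The cause was not tested.

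A pairing of libraries by replicate number was not stated, and the correlations below do not settle it. Deviations were taken from the mean of each group, so the means for other numbers follow from those for the same number. Within pairs of the same number, the mean correlation of deviations for liver was 0.0387 at 1340 and 0.117 at 2680 mg/kg/d, for kidney 0.0352 and 0.0187, and between organs of water mice 0.132 and 0.0999. For other numbers the highest mean of these was -0.00892 and the lowest -0.0585. Between organs of NMN mice the means for the same number were 0.0836 at 1340 and -0.000748 at 2680 mg/kg/d. For other numbers they were -0.0278 and 0.000722, and the lowest pair of the same number was below 0 on both schedules. All 3 pairs of the liver at 2680 mg/kg/d were above 0 (0.0577 to 0.151). So were all 7 between organs of water mice (0.0600 to 0.220 at 1340 and 0.0635 to 0.158 at 2680 mg/kg/d). Whether these libraries are pairs could not be settled. With the replicate block Gpd1 in the liver at 2680 mg/kg/d was at log2 -0.73 (edgeR adjusted p = 0.0377), and the block changed no call among the 10 genes. All genes called became 16 and 75 at 1340 mg/kg/d in liver and kidney (2 and 18 without the block). They became 92 in the kidney at 2680 mg/kg/d (61) and 2 for the kidney schedule interaction (1). For the organ interactions they became 5 and 247 (0 and 419). Of the 10 genes, Nnt and, in the liver, Ldhb had the fewest counts, which limits what could be resolved for them.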
